A study of Mus musculus with 11 samples.

Results

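Skeletal muscle contracts when an action potential on the fibre surface is turned into a release of calcium from the sarcoplasmic reticulum, a sequence called excitation-contraction coupling. The genes described here are 10 that carry out its main steps: Cacna1s, Ryr1, Trdn, Casq1, Casq2, Atp2a1, Atp2a2, Sln, Pvalb and Clcn1. They were taken by symbol from a deposited gene count table, and all 10 were among its 55385 genes and among the 15416 genes with enough counts to be tested. The table comes from RNA sequencing of mouse gastrocnemius, a calf muscle of mostly fast fibres, dissected after 36 h of fasting, a standard way to induce muscle wasting. The series deleted ZEB1 or ZEB2, related transcription factors of the zinc-finger class.

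Every mouse in the series was fasted and carried homozygous floxed alleles. ZEB1 knockouts (ZEB1 KO, 3 libraries) were ZEB1 flx/flx with HSACre, and ZEB1 controls (2 libraries, numbered 2 and 3) were ZEB1 flx/flx. ZEB2 knockouts (ZEB2 KO, 3 libraries) were ZEB2 flx/flx with HSACre, and ZEB2 controls (3 libraries) were ZEB2 flx/flx. HSACre is a Cre recombinase under the promoter of human skeletal actin, which is active in muscle fibres and not in the other cells of the tissue. Each library pooled RNA of 2 mice, and the p-values therefore reflect how pools varied, not single animals. No group carried HSACre without floxed alleles and none was fed, so loss of a ZEB gene cannot be told apart from presence of Cre, and no value here is a response to fasting. Age and strain were not given in the sources used here.

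In the coupling sequence, the calcium channel of the transverse tubule, whose pore subunit Cacna1s encodes, senses the voltage and opens the ryanodine receptor Ryr1 in the facing reticulum membrane, with triadin (Trdn) holding calsequestrin beside the release channel. Calsequestrin buffers the stored calcium, Casq1 being the main form of skeletal muscle, not confined to fast fibres, and Casq2 the form of heart and slow fibres. The pumps SERCA1 (Atp2a1, fast fibres) and SERCA2 (Atp2a2, heart and slow fibres) return the calcium. Sarcolipin (Sln) inhibits the pumps, parvalbumin (Pvalb) is a soluble calcium buffer that speeds relaxation of fast fibres, and the chloride channel ClC-1 (Clcn1) steadies the membrane between action potentials.

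ZEB1 and ZEB2 are known to bind E-boxes of the sequence CACCTG, which reads CAGGTG on the other strand, and each spelling is the other's reverse complement. These 6 letters were therefore searched on both strands in the RefSeq promoters of build GRCm38.p6, from 250 bases before to 50 bases after each gene's start. The table held 8 promoters of 7 of the genes (Trdn, Atp2a2 and Sln had no entry), and 2 of the 8 (25%) held a match, against 6640 of all 32851 promoters (20.2%). The 2 matches, in Casq1 and Clcn1, were the only ones found, and both are shown. Casq1 and Clcn1 are among the 3 genes described here with the lowest log2 fold changes in ZEB2 knockouts, while the lowest, Casq2, had no match. Whether matches and fold changes go together was not tested, and genes without a promoter entry could not be placed. The Casq1 window is chr1:172219945-172219974 on the minus strand, with the match beginning at position -67 from the start, and the Clcn1 window is chr6:42286548-42286577 on the plus strand, with the match beginning at position -125. Each is printed 5′ to 3′ along its gene, with the E-box in capitals.
Casq1: tttagacaggacCAGGTGgggacggagggg
Clcn1: acactccactcaCACCTGcttcgaccccag
The promoters of Cacna1s, Ryr1, Casq2, Atp2a1 and Pvalb did not hold these letters. A match is a description of the letters and not evidence that a factor binds there.

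Total counts ran from 27.3 M in ZEB1 control 2 to 46.3 M in ZEB2 KO 2. Zeb1 had 28.4, 28.6 and 30.4 CPM in ZEB1 knockouts, against 41.2 and 51.1 CPM in ZEB1 controls, and Zeb2 had 18.3, 14.4 and 17.7 CPM in ZEB2 knockouts, against 24.1, 23.1 and 25.8 CPM in ZEB2 controls. CPM are counts per M counts of the library total scaled by the trimmed mean of M-values (TMM). Each targeted gene was thus lower in every library of its knockout, though neither passed the test (edgeR quasi-likelihood test, adjusted p = 0.8 for Zeb1 and 0.0775 for Zeb2), and cells without the Cre keep the gene. Zeb1 was higher in every ZEB2 knockout library, at 67.2, 60.2 and 76.0 CPM, against 47.7, 52.1 and 43.7 CPM in ZEB2 controls. Its log2 fold change there was 0.50 (adjusted p = 0.0787 by edgeR). Zeb2 overlapped between the ZEB1 groups, with 21.8, 19.7 and 20.7 CPM in knockouts and 20.8 and 18.7 CPM in controls. Y-linked counts were 0 in ZEB1 KO 1, ZEB1 KO 2, ZEB1 control 2 and ZEB2 control 3. They summed to 216, 256 and 378 CPM in ZEB2 knockouts, against 118, 249.9 and 0 CPM in ZEB2 controls. The Y-linked level was thus not balanced between the ZEB2 groups. Of 10 cardiac markers, whose type of muscle also uses Casq2 and Atp2a2, Nppb was at 0 in all 11 libraries, and Nppa, Myl7 and Mybpc3 were at most 0.0619, 0.0322 and 0.0329 CPM. The other markers were detected in every library, at up to 918 CPM for Actc1, 44.9 for Myh6 and 10.7 for Myl4. Tnnt2, Hcn4 and Tnni3 reached 4.05, 2.58 and 0.404 CPM.

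Levels of the 10 genes spanned a very wide range. Per kilobase of merged exons, averaged over the 11 libraries, Atp2a1 led with 6072 ± 1099 CPM per kilobase (SD, n = 11 here and below), followed by Pvalb with 4715 ± 793. Casq1 stood at 478 ± 237, Cacna1s at 112 ± 15.4, Trdn at 92.5 (lowest 71.2, highest 115), Ryr1 at 68.8 ± 8.33 and Atp2a2 at 34.6 (lowest 21.2, highest 55.5). Casq2 had 19.1 ± 10.9, Clcn1 14.2 ± 6.43 and Sln 6.02 ± 2.62. Atp2a1 thus stood far above Atp2a2, and Casq1 far above Casq2. Neighbours whose ranges overlapped were Atp2a1 and Pvalb, Cacna1s and Trdn, Trdn and Ryr1, Atp2a2 and Casq2, Casq2 and Clcn1, and Clcn1 and Sln. Casq2 was above Clcn1 in 8 of 11 libraries, and Atp2a1 above Pvalb in 10 of 11. With the length of the longest coding transcript in place of merged exons, Trdn (192) moved above Cacna1s (117) and Clcn1 (21.8) above Casq2 (20.4), so those places in the order depend on the length used.

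**Figure D1:**
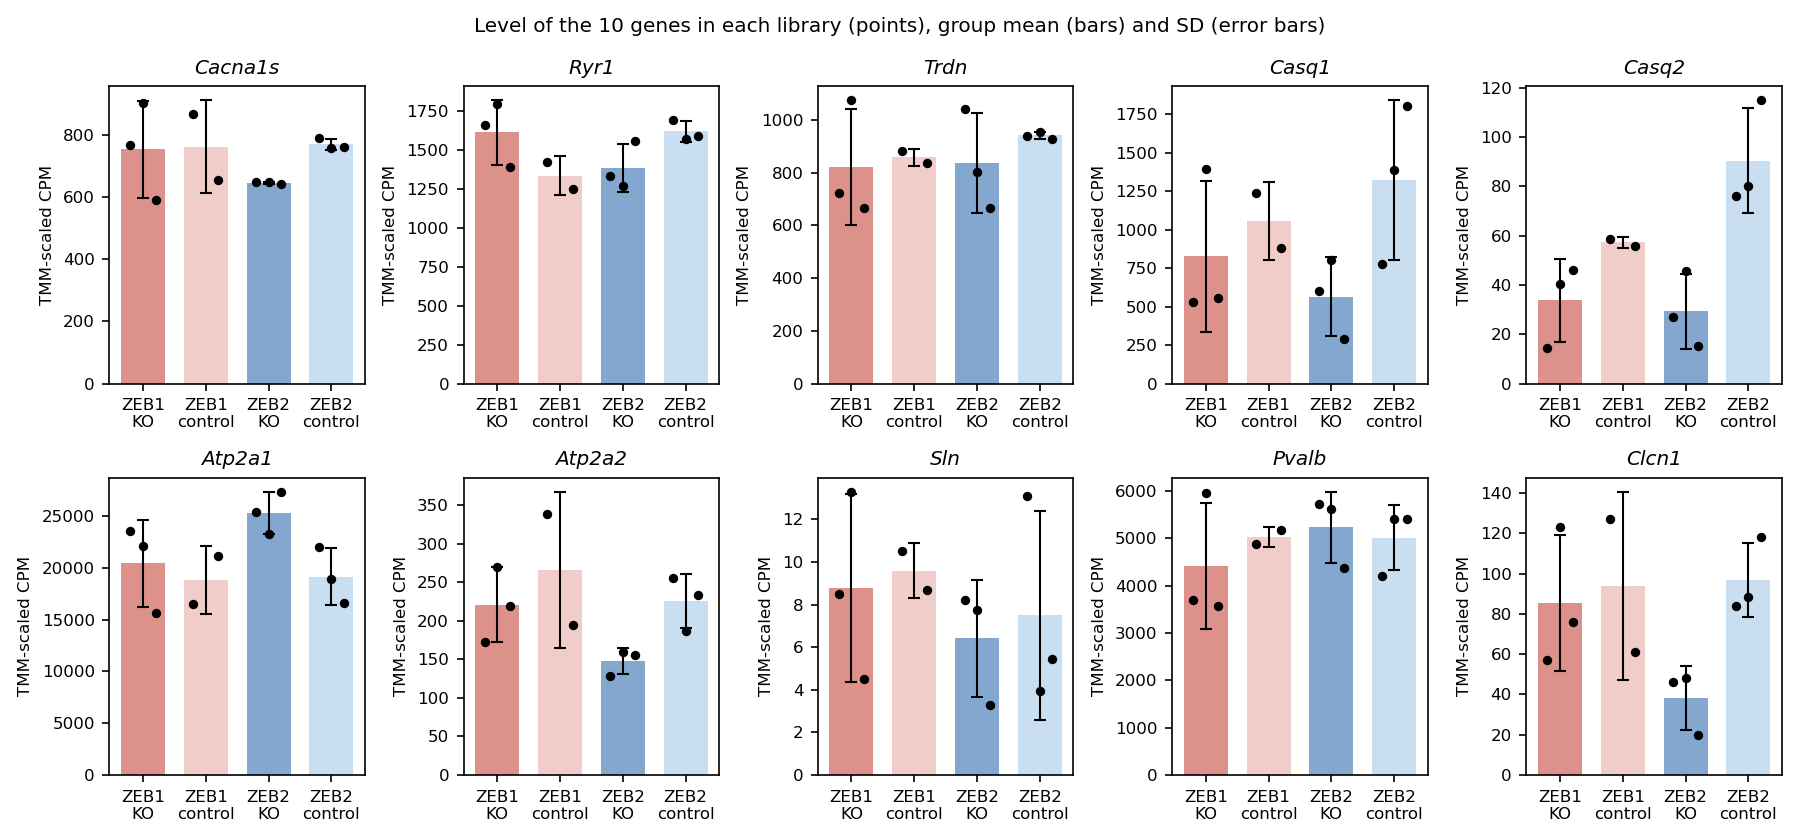
Level of each gene in each library, in TMM-scaled CPM on a linear axis that starts at 0. Points are libraries, bars are group means and error bars are SDs (n = 3, and n = 2 in ZEB1 control). Cacna1s, Ryr1, Casq2, Atp2a2 and Clcn1 of ZEB2 knockouts lie below every ZEB2 control, and Atp2a1 lies above.

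The first question was what differed in muscle with ZEB2 deleted from its fibres. Casq2, Clcn1, Casq1 and Atp2a2 were lower and Atp2a1 was higher in ZEB2 knockouts, while Pvalb, Trdn and Sln differed by less than their spread. Cacna1s and Ryr1 were lower by a smaller amount, with no overlap of the groups. None of the 10 passed the edgeR quasi-likelihood test at an adjusted p of 0.05, and neither did any of the 15416 genes (0% called). At an unadjusted p under 0.05 there were 5 of the 10 genes, against 33.2% of all genes tested. The knockout libraries lay wholly below the controls for 5 genes, against 22.1% of all genes tested, and wholly above for 1, against 21.3%. The median log2 fold change was -0.24 over the 10 genes and -0.05 over all genes tested.

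For the voltage sensor, Cacna1s (chromosome 1, 136052750 to 136119822, GRCm38 as are all positions here) had 649, 648 and 643 CPM in ZEB2 knockouts, against 789.5, 759 and 762 CPM in ZEB2 controls. The knockout libraries were close together and below every control. The log2 fold change was -0.25 (SE 0.16, adjusted p = 0.283 by edgeR), in a fit that shares one spread over all 4 groups. In the ZEB1 libraries, knockout and control, this gene ranged from 592 to 903 CPM.

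The release channel Ryr1 (chromosome 7, 29003344 to 29125179) had 1332, 1269 and 1558 CPM in ZEB2 knockouts, against 1697, 1571 and 1593 CPM in ZEB2 controls. The groups did not overlap, but ZEB2 KO 3 stood just under the lowest control. The log2 fold change was -0.22 (SE 0.13, adjusted p = 0.249). Trdn (chromosome 10, 33080554 to 33476709) had 1042, 803 and 666 CPM in ZEB2 knockouts, against 939, 955 and 929 CPM in ZEB2 controls. ZEB2 KO 1 was above all controls and the other two below, and the log2 fold change of -0.17 had a 95% interval from -0.61 to 0.27.

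Both calsequestrins were lower. Casq2 (chromosome 3, 102086415 to 102146514) had 27.1, 45.6 and 15.2 CPM in ZEB2 knockouts, against 76.1, 80.3 and 115 CPM in ZEB2 controls. All 3 knockout libraries lay below all controls, and the log2 fold change of -1.62 (SE 0.45, adjusted p = 0.0811) was the largest of the 10 genes. Casq1 (chromosome 1, 172209894 to 172219868) had 602, 803 and 289 CPM in ZEB2 knockouts, against 776, 1388 and 1806 CPM in ZEB2 controls. Here ZEB2 KO 2 and ZEB2 control 1 overlapped, and the log2 fold change was -1.23 (SE 0.47, adjusted p = 0.114). ZEB2 KO 3 was the lowest library of the series for Casq1, and without it the value was -0.90.

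The pumps differed in opposite directions, neither past the test. Atp2a1 (chromosome 7, 126445858 to 126463108) had 25380.1, 23230.2 and 27299.9 CPM in ZEB2 knockouts, against 21978, 18911 and 16552 CPM in ZEB2 controls. Every knockout library was above every control, by a log2 fold change of 0.40 (SE 0.17, adjusted p = 0.13). Atp2a2 (chromosome 5, 122453513 to 122502225) had 129, 159 and 156 CPM in ZEB2 knockouts, against 255, 187 and 234 CPM in ZEB2 controls. Every knockout library was below every control, by a log2 fold change of -0.61 (SE 0.23, adjusted p = 0.105).

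The pump inhibitor Sln (chromosome 9, 53850164 to 53854560) had 8.21, 7.75 and 3.27 CPM in ZEB2 knockouts, against 13.1, 3.96 and 5.44 CPM in ZEB2 controls. The groups overlapped fully at this low level of 116 to 424 counts per library, and the log2 fold change of -0.23 had a 95% interval from -1.37 to 0.91. The buffer Pvalb (chromosome 15, 78191114 to 78206400) had 5720.1, 5608 and 4366 CPM in ZEB2 knockouts, against 4212, 5404 and 5408 CPM in ZEB2 controls. Its groups overlapped too, and the log2 fold change of 0.06 had a 95% interval from -0.37 to 0.50.

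Clcn1 (chromosome 6, 42286685 to 42315756) had 46.3, 48.3 and 19.7 CPM in ZEB2 knockouts, against 84.1, 88.6 and 118 CPM in ZEB2 controls. The groups did not overlap, and ZEB2 KO 3 was the lowest library of the series. The log2 fold change was -1.34 (SE 0.40, adjusted p = 0.0842).

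Whether these differences were called depended on the tool and on the libraries in the fit. With limma-voom none of the 10 was called for ZEB2, nor was any of the 15416 genes tested. DESeq2 called Casq2 (log2 fold change -1.59, adjusted p = 0.00664), Clcn1 (-1.31, adjusted p = 0.0123) and Casq1 (-1.20, adjusted p = 0.0398) lower in ZEB2 knockouts, where it called 7.7% of all genes tested lower. An edgeR fit of the ZEB2 libraries alone called Casq2 (adjusted p = 0.0407), Clcn1 (0.0416) and Atp2a2 (0.0446) lower, where 6.54% of genes were called lower. With the level of Y-linked genes as a covariate, Casq1 stood at -0.92, Clcn1 at -1.10 and Casq2 at -1.64, none of them called. None of the 15416 genes was called in that fit either. It had 3272 genes under an unadjusted p of 0.05 for ZEB2, against 5113 in the main edgeR fit.

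**Figure D2:**
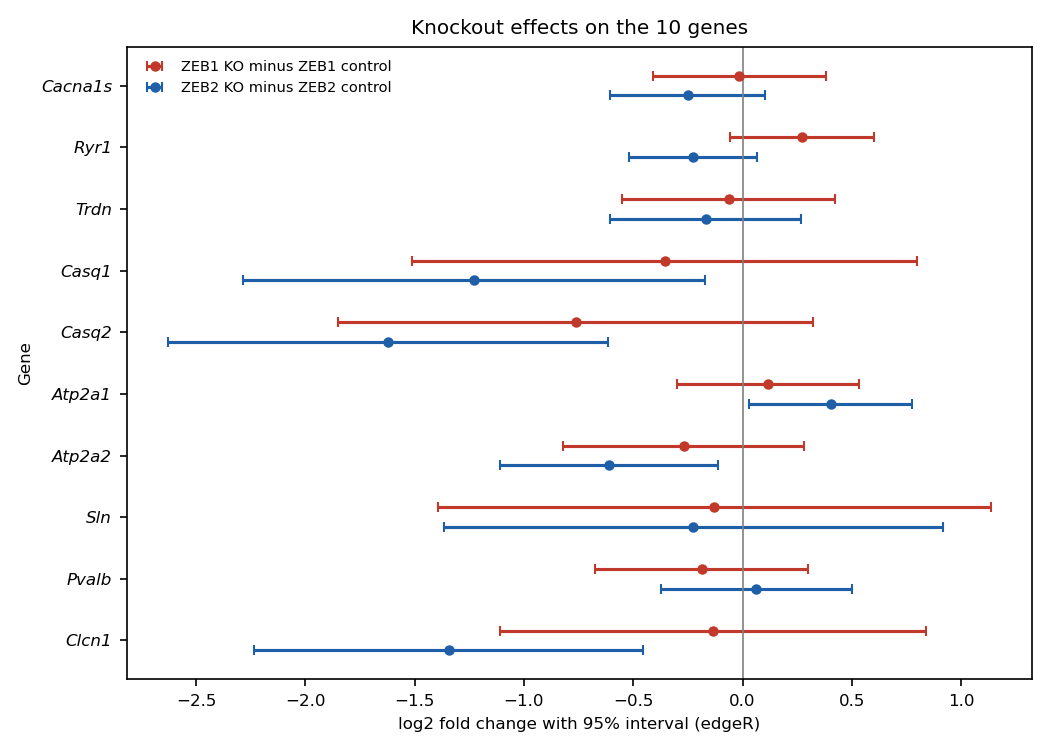
Log2 fold change (edgeR) of each gene, knockout minus control of the same line, with its 95% interval. ZEB1 is drawn above ZEB2 for each gene. In ZEB2 the intervals of Casq1, Casq2, Atp2a1, Atp2a2 and Clcn1 leave out 0 before adjustment, and in ZEB1 no interval does.

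The second comparison asked the same of ZEB1. None of the 10 genes passed the test (every adjusted p = 1 by edgeR, 0% of all genes called), and none was under an unadjusted p of 0.05, as 3.24% of all genes tested were. The knockout libraries lay wholly below the controls for Casq2 alone, against 6.69% of all genes, and wholly above for none, against 7.19%. The median was -0.13 over the 10 genes and 0.01 over all genes tested.

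Casq2 had 14.5, 40.4 and 46.2 CPM in ZEB1 knockouts, against 58.7 and 55.8 CPM in ZEB1 controls. ZEB1 KO 1 was far below the other two, and the log2 fold change was -0.76 (SE 0.49) with a 95% interval from -1.85 to 0.32, or -0.42 without ZEB1 KO 1. Fibro-adipogenic markers were negative in 10 of 10 cases, where 48.7% of all genes tested were negative. These markers summed to 1621 to 2294 CPM in ZEB1 knockouts, against 2648 to 2689 CPM in ZEB1 controls. Schwann cell markers were negative in 10 of 10 cases too, but their sums overlapped (97.8 to 323 CPM in ZEB1 knockouts, 243 to 389 CPM in ZEB1 controls). Smooth muscle markers were split, 5 of 10 negative. Macrophage (8 of 10), endothelial (8 of 10), adipocyte (6 of 9 tested) and erythroid markers (5 of 6 tested) were mostly negative. The sums of these lists also overlapped between the ZEB1 groups. Slow-fibre genes were negative in 11 of 13 cases (median -0.35). Their sums overlapped, at 4342 to 4989 CPM in ZEB1 knockouts and 4557 to 6319.6 CPM in ZEB1 controls. Myh2 of oxidative fast fibres, not in that list, stood at -0.63 (unadjusted p = 0.0297 by edgeR). Cardiac markers were negative in 5 of 5 tested (median -0.68). The cardiac list summed to 152 to 283 CPM in ZEB1 knockouts, against 366 to 642 CPM in ZEB1 controls. The part of these cells and fibres in the Casq2 difference was not tested. Ryr1 had 1659, 1796 and 1389.5 CPM in ZEB1 knockouts, against 1424 and 1248 CPM in ZEB1 controls. Its lowest knockout library overlapped the controls, and the log2 fold change was 0.27 (SE 0.15, unadjusted p = 0.0951 by edgeR).

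The other calsequestrin and pump genes overlapped between ZEB1 groups. Casq1 had 531, 1391 and 556 CPM in ZEB1 knockouts, against 1236 and 879 CPM in ZEB1 controls, and Clcn1 had 57.2, 123 and 75.8 CPM in ZEB1 knockouts, against 127 and 60.9 CPM in ZEB1 controls. ZEB1 KO 2 and ZEB1 control 2 were the high libraries for both genes, so these genes varied as much within the groups as between them. Atp2a2 had 173, 270.4 and 219.6 CPM in ZEB1 knockouts, against 338 and 195 CPM in ZEB1 controls. Atp2a1 had 23523, 22118 and 15586 CPM in ZEB1 knockouts, against 16508 and 21157 CPM in ZEB1 controls. Their log2 fold changes were -0.36 for Casq1 (from -0.96 without ZEB1 KO 2 to -0.10 without ZEB1 control 2), -0.14 for Clcn1, -0.27 for Atp2a2 and 0.12 for Atp2a1, each with a 95% interval that holds 0.

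Cacna1s averaged 754 ± 156 CPM in ZEB1 knockouts (SD, n = 3) and 763 ± 150.1 CPM in ZEB1 controls (n = 2), and Trdn 821 ± 221 CPM in ZEB1 knockouts and 859 ± 32.8 CPM in ZEB1 controls. Pvalb averaged 4411 ± 1337 CPM in ZEB1 knockouts and 5022 ± 207 CPM in ZEB1 controls, and Sln 8.79 ± 4.41 CPM in ZEB1 knockouts and 9.6 ± 1.3 CPM in ZEB1 controls. Each of these 4 differences was smaller than the spread of the knockout libraries. With 2 controls the directions were easily moved: without ZEB1 control 2 the log2 fold changes became 0.18 for Cacna1s, 0.17 for Atp2a2, 0.48 for Clcn1 and -0.07 for Atp2a1.

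Whether the ZEB2 and ZEB1 effects differed was tested directly, and no gene passed (0% called by edgeR). Ryr1 alone had an unadjusted p under 0.05, as 9.26% of all genes tested did. Its ZEB2 effect minus its ZEB1 effect was -0.50 on the log2 scale (SE 0.20, adjusted p = 0.516). For Clcn1 the difference was -1.21 (SE 0.60, unadjusted p = 0.0705 by edgeR), and for the remaining genes it lay between -0.87 (Casq1) and 0.29 (Atp2a1), with intervals that all hold 0. Over left-out libraries it ran from -1.80 to -0.75 for Clcn1, without ZEB1 control 2 and ZEB1 control 3, and from -1.21 to -0.27 for Casq1, without ZEB2 KO 2 and ZEB1 KO 2. The lower Casq2 and Clcn1 of ZEB2 knockouts were therefore not shown to be particular to ZEB2.

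Averaged over both lines, with equal weight, Casq2 had a log2 fold change of -1.19 (SE 0.33, adjusted p = 0.181), and no gene passed (0% called by edgeR). Casq2, Casq1 (-0.79), Atp2a2 (-0.44) and Clcn1 (-0.74) were under an unadjusted p of 0.05, 4 of the 10 against 21.4% of all genes tested. Without ZEB1 control 2, Casq2 alone of the 10 stayed under that p, with Casq1 at -0.65, Atp2a2 at -0.21 and Clcn1 at -0.42. Casq2 was also the only one without ZEB1 KO 1. DESeq2 called Casq2 (-1.18, adjusted p = 0.0184), where it called 1.49% of all genes lower. The ZEB2 controls differed from the ZEB1 controls in none of the 10 genes, with 3 of all genes called (0.0195%) and none of the 10 under an unadjusted p of 0.05, against 3.32% of all genes. The widest such difference was in Casq2, 0.66 on the log2 scale (SE 0.50), which is close in size to its ZEB1 knockout effect.

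The balance between the forms of the pump and between those of calsequestrin was taken as the log2 ratio of CPM within each library. Atp2a2 to Atp2a1 was -7.62, -7.19 and -7.46 in ZEB2 knockouts, against -6.43, -6.66 and -6.14 in ZEB2 controls. All 3 knockout libraries were below all controls, by -1.01 on average, and the exact two-sided permutation test over libraries gave p = 0.1, the smallest that 3 against 3 allow. In ZEB1 it was -7.09, -6.35 and -6.15 in knockouts, against -5.61 and -6.76 in controls, a mean difference of -0.34 with overlapping libraries (exact permutation p = 0.6, with 0.1 the smallest possible). With both lines together, permuting within lines over 200 arrangements, the difference was -0.68 (exact p = 0.055, or 0.11 adjusted over the 2 ratios). That p hung on single libraries: without ZEB1 control 3 the difference was -0.97 (exact p = 0.025), and without ZEB1 control 2 it was -0.39 (exact p = 0.3).

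Casq2 to Casq1 was -4.47, -4.14 and -4.25 in ZEB2 knockouts, against -3.35, -4.11 and -3.98 in ZEB2 controls. The knockouts were lower by -0.47 without overlap, but by little at their border (exact permutation p = 0.1, the smallest possible). In ZEB1 it was -5.20, -5.11 and -3.59 in knockouts, against -4.40 and -3.98 in controls (exact permutation p = 0.6). ZEB1 KO 3 had the second highest ratio of the series and the other two ZEB1 knockouts the lowest. Both lines together gave -0.46 (exact permutation p = 0.205), and without ZEB1 KO 3 it was -0.72 (exact p = 0.0167).

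**Figure D3:**
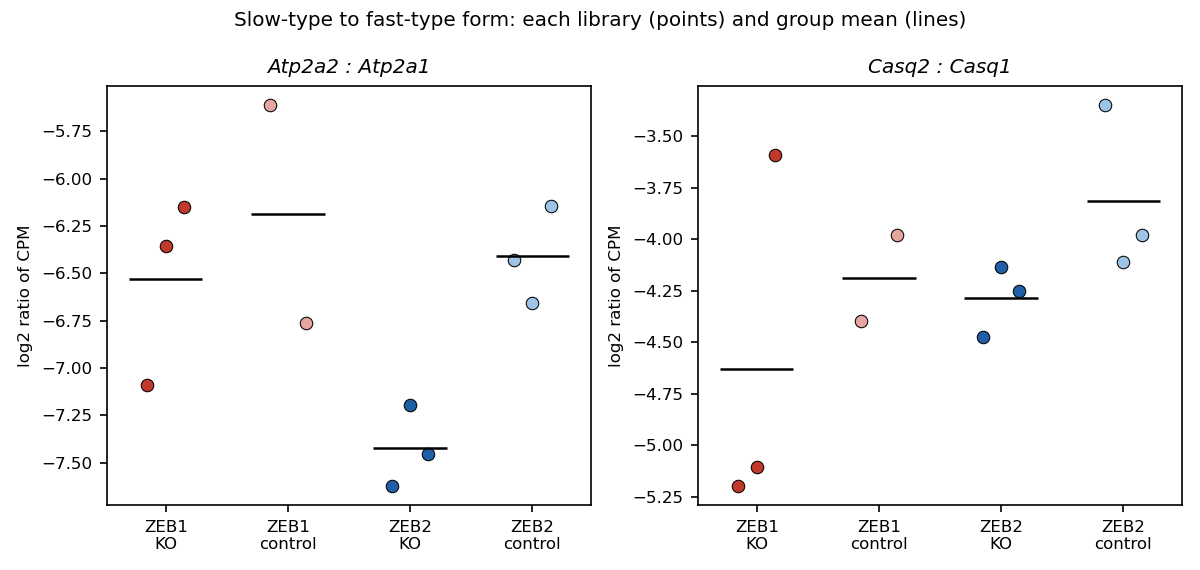
Log2 ratio of Atp2a2 to Atp2a1, the slow to the fast form of the calcium pump (left), and of Casq2 to Casq1 (right). Casq1 is not confined to fast fibres. Points are libraries and lines are group means. The 3 ZEB2 knockout libraries lie between -7.62 and -7.19 for the pump, below the ZEB2 controls, and the ZEB1 libraries overlap.

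Myosin heavy chain genes, which mark fibre types, were set beside these values. Myh7 of slow fibres had 189, 263 and 172 CPM in ZEB2 knockouts, against 442, 366 and 483 CPM in ZEB2 controls (log2 fold change -1.05, SE 0.33, adjusted p = 0.0881 by edgeR). Myh2 of oxidative fast fibres had 871, 1289.6 and 731 CPM in ZEB2 knockouts, against 2237, 2732 and 3469 CPM in ZEB2 controls (-1.54, SE 0.24, adjusted p = 0.0775 by edgeR). Both were lower in every ZEB2 knockout library, as Casq2 and Atp2a2 were, while Myh4 of the fastest fibres stood at 0.40 (SE 0.21) and Myh1 at -0.85 (SE 0.35). Of 13 slow-fibre genes 12 had a negative value in ZEB2 (median -0.50), and of 14 fast-fibre genes 7 did (median 0.04), with 0 passing the test in either list. Among all genes tested 53.4% had a negative value. The slow-fibre list summed to 3076 to 4585 CPM in ZEB2 knockouts, against 4642 to 5398 CPM in ZEB2 controls. In bulk muscle, fewer slow fibres and less RNA of these genes per fibre cannot be told apart. Their part in the values of Casq2 and Atp2a2 was not tested.

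Markers of cell types other than fibres were mostly lower too, where 53.4% of all genes tested had a negative value. All 10 smooth muscle markers had a negative value in ZEB2 (median -0.54), and their sum was 453 to 482 CPM in ZEB2 knockouts, against 609 to 685 CPM in ZEB2 controls. Of 10 fibro-adipogenic markers 9 were negative (median -0.91), and their sum was 1694 to 1869 CPM in ZEB2 knockouts, against 1947 to 2476 CPM in ZEB2 controls. Macrophage markers (9 of 10 negative) summed to 107 to 118 CPM in ZEB2 knockouts, against 130 to 172 CPM in ZEB2 controls, and Schwann cell markers (10 of 10) to 167 to 270.2 CPM, against 252 to 494 CPM in ZEB2 controls. Adipocyte (8 of 9 tested), endothelial (8 of 10) and erythroid markers (6 of 6 tested) were mostly negative too, but no list had a member that passed the test. Their sums overlapped between the groups, with 1037 to 1296, 519 to 582 and 1132 to 1427 CPM in ZEB2 knockouts, against 722 to 1273, 557 to 687 and 1389 to 1779 CPM in ZEB2 controls. Smooth muscle also uses Atp2a2, and the part of these other cells in the result was not tested. Of the cardiac markers 5 were tested and all 5 were negative in ZEB2 (median -0.71), the most abundant being Actc1, with up to 918 CPM in a library. The sums of the cardiac list overlapped, at 123 to 672 CPM in ZEB2 knockouts and 267 to 937 CPM in ZEB2 controls.

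The level of Trim63, the muscle ubiquitin ligase MuRF1 that rises in wasting muscle, varied widely among the pools. It had 5157, 4973 and 7378 CPM in ZEB2 knockouts, against 2139, 3197 and 956 CPM in ZEB2 controls (log2 fold change 1.48, SE 0.71, adjusted p = 0.175 by edgeR). In ZEB1 it had 4709.9, 925 and 2854 CPM in knockouts, against 769.9 and 4750 CPM in controls, so that each ZEB1 group held a low and a high library. The 10 genes were correlated with it over the 11 libraries, a set of 10 relations added after the values had been seen. The permutations shuffled all 11 libraries without regard to group, so their p-values also reflect differences between groups.

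Among the genes described here, Clcn1 and Atp2a2 followed Trim63 most closely, in the opposite direction. The p-values were adjusted over the genes described here only. How many of all genes tested followed Trim63 as closely was not tested, so these relations were not shown to be particular to Clcn1 and Atp2a2. Clcn1 had Pearson's r = -0.883 (permutation p = 5e-05, adjusted 0.0005) and Spearman's rho = -0.964 (permutation p = 1e-05, the smallest that the resamples can give, adjusted 0.0001). Atp2a2 had r = -0.886 (permutation p = 0.00017, adjusted 0.00085) and rho = -0.955 (permutation p = 5e-05, adjusted 0.00025). Without the 2 libraries farthest from the median of Trim63, ZEB1 control 2 and ZEB1 KO 2, r was -0.848 for Clcn1 and -0.778 for Atp2a2, and with group means removed it was -0.819 and -0.842. Within groups the r of both genes thus stayed negative, but no test was run on these within-group values.

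The other genes had smaller r and rho over the 11 libraries. Casq1 had r = -0.77 (permutation p = 0.00512, adjusted 0.0171) and rho = -0.645 (permutation p = 0.0369, adjusted 0.0738), with r = -0.672 within groups and -0.747 without the same 2 libraries. Cacna1s had r = -0.756 (permutation p = 0.0085, adjusted 0.0212) and rho = -0.736 (permutation p = 0.0128, adjusted 0.0428), with r = -0.496 without those 2 libraries. Atp2a1 was the only one with a positive relation of any size, r = 0.652 (permutation p = 0.0302, adjusted 0.0605) and rho = 0.709 (permutation p = 0.0186, adjusted 0.0464), with r = 0.4 within groups and 0.755 without those 2 libraries. Casq2, with r = -0.599 (permutation p = 0.0522) and rho = -0.555 (permutation p = 0.0817), had r = -0.788 without them. Casq2, Ryr1, Trdn, Sln and Pvalb had adjusted permutation p-values of 0.087 and above. Trim63 was higher in every ZEB2 knockout library than in any ZEB2 control, and its part in the ZEB2 differences was not tested.

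**Figure D4:**
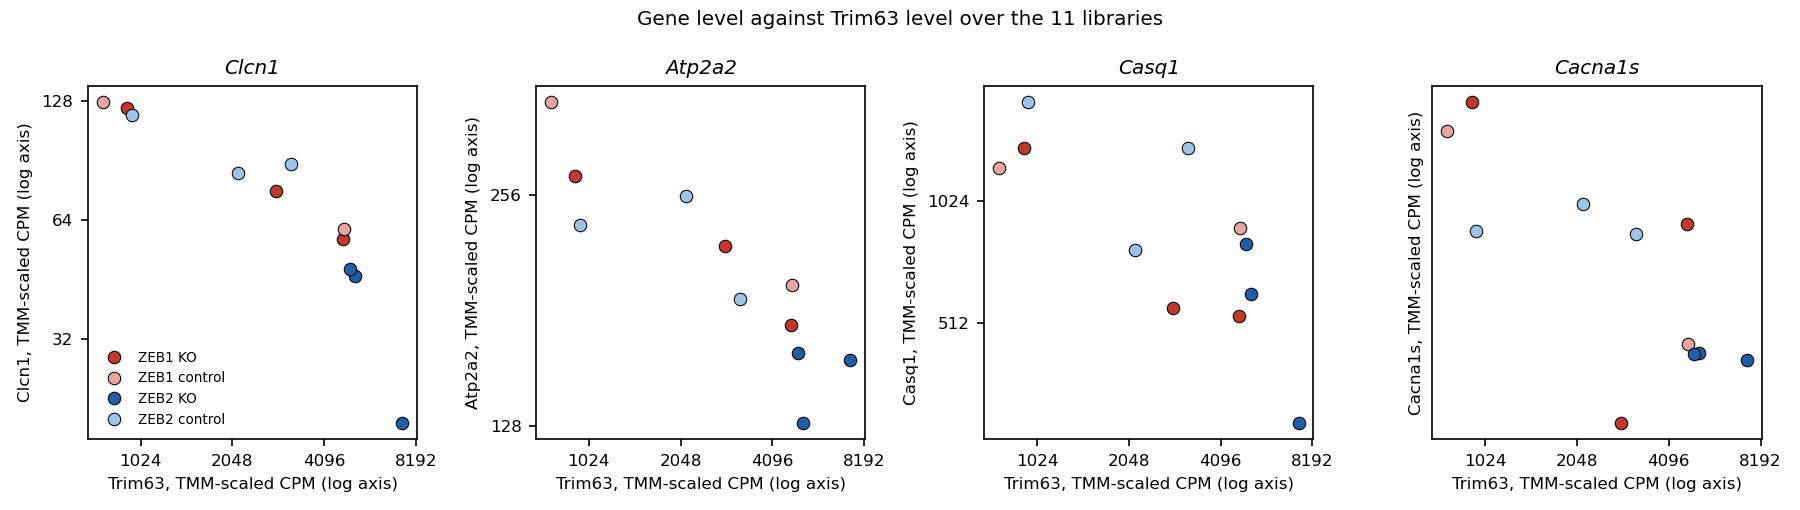
Level of Clcn1, Atp2a2, Casq1 and Cacna1s against the level of Trim63 in the 11 libraries, both in TMM-scaled CPM on log axes. Points are libraries coloured by group. Clcn1 and Atp2a2 are lower the higher Trim63 is, with ZEB1 KO 2, ZEB1 control 2 and ZEB2 control 3 at the low end and ZEB2 KO 3 at the high end of Trim63.

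Some pairs of the genes varied together over the libraries. Over the 11 libraries, Casq1 and Clcn1 had r = 0.874 (0.871 with group means removed) and Casq1 and Casq2 r = 0.809 (0.673). Atp2a2 and Clcn1 had r = 0.792 (0.544), and Trdn and Pvalb r = 0.759 (0.832). Atp2a1 had negative values with Clcn1 (r = -0.737), Casq2 (-0.691) and Atp2a2 (-0.661), and within groups they were -0.449, -0.662 and -0.308. With Pvalb, Sln, Ryr1 and Trdn it lay near 0 (0.136, 0.093, 0.05 and -0.009), and within groups it was positive with Ryr1 (0.548) and Sln (0.409). These values describe 11 libraries that share one scaling, and they carry no test.

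The genes whose pattern over the 11 libraries was most like each of the 10 were sought among 7074 tested genes with a mean of at least 10 CPM. Atp2a1 was closest to Myh4, the myosin of the fastest fibres (r = 0.963), and Pvalb to the fast myosin light chain Myl1 (0.939), Pdlim7 (0.937) and the fast troponin Tnnc2 (0.925). Clcn1 was closest to Myorg (0.992), Kank2 (0.987) and the transcription factor gene Mef2c (0.987), and Casq1 to Trim35 (0.981), Trim7 (0.979) and Col6a2 (0.977), a collagen VI chain. Casq2 was closest to Rassf3 (0.938), Atp2a2 to Ids (0.946), Cacna1s to Maob (0.93) and Sln to Retnla (0.939), a gene not typical of fibres. Ryr1 and Trdn had the loosest neighbours, Mfn2 (0.847), a mitochondrial fusion gene, and Scp2 (0.879).

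A wider set of 131 other genes of calcium handling and membrane excitability was read in 7 lists by role, of which 129 were in the table and 124 were tested. In ZEB2 knockouts 0 of the 124 passed the edgeR test, 40 had a positive and 84 a negative value (median -0.25), and 54 (43.5%) were under an unadjusted p of 0.05, 9 of them higher and 45 lower, against 33.2% of all genes. In ZEB1 knockouts 0 passed as well, 67 had a positive and 57 a negative value (median 0.02), and 3 (2.42%) were under an unadjusted p of 0.05, against 3.24% of all genes. For the difference between the ZEB2 and ZEB1 effects, 0 passed and 14 (11.3%) were under that p, against 9.26% of all genes. Of all genes tested, 53.4% had a negative value in ZEB2 knockouts and 48.7% in ZEB1 knockouts.

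In ZEB2 the list medians ran from -0.55 for the release modulators to -0.01 for the triad structure genes, beside -0.05 for all genes. Of the release modulators 16 of 20 were negative and 11 were under an unadjusted p of 0.05 by edgeR, against 33.2% of all genes tested. Other lists had similar shares, with 8 of 15 triad structure genes and 13 of 24 membrane excitability genes under that p. The voltage sensor list had 4 of 9, calcium signalling 9 of 24, pump regulators 4 of 13 and store entry 5 of 19. The most abundant release modulators per kilobase were Hrc, a calcium-binding protein of the reticulum lumen, and Srl, which encodes sarcalumenin, a luminal glycoprotein. Srl averaged 603 ± 46.4 CPM in ZEB2 knockouts and 933 ± 73.2 CPM in ZEB2 controls (SD, n = 3 each), and its log2 fold change was -0.63 (SE 0.12, adjusted p = 0.0775 by edgeR). Hrc averaged 308 ± 45.0 CPM in ZEB2 knockouts and 483 ± 33.5 CPM in ZEB2 controls, at -0.65 (SE 0.17, adjusted p = 0.0775 by edgeR). In ZEB1 both were slightly higher, each at 0.16.

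The voltage sensor list had 6 of 9 tested genes negative in ZEB2 (median -0.28). Stac3, an adaptor that the sensor needs for coupling, stood at -0.66 (SE 0.22, adjusted p = 0.0908 by edgeR), while the sensor's gamma subunit gene Cacng1 stood at 0.48 (SE 0.21, adjusted p = 0.142 by edgeR) and at 0.72 in ZEB1 (SE 0.24, unadjusted p = 0.0128 by edgeR). Of the triad structure genes 8 of 15 were negative. Its most abundant genes, the potassium counter-ion channel gene Tmem38a and the reticulon Rtn2, stood at -0.01 (SE 0.11) and 0.32 (SE 0.13).

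Pump regulators and extrusion genes were negative in 11 of 13 cases (median -0.36). Sar1b, a GTPase of the secretory route the most abundant of the list, stood at 0.58 (SE 0.18, adjusted p = 0.0882 by edgeR). Mrln, which encodes the pump inhibitor myoregulin, stood at -0.27 (SE 0.30). Membrane excitability genes were negative in 17 of 24 cases (median -0.26).

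The store entry and mitochondrial uptake genes were split, 10 of 19 negative (median -0.08), with the mitochondrial channel genes Vdac1 and Vdac3 at 0.04 (SE 0.12) and 0.17 (SE 0.11). Calcium signalling and sensor genes were negative in 16 of 24 cases (median -0.08), with the calcium sensor of fast troponin, Tnnc2, at -0.03 (SE 0.16) and the regulatory light chain Mylpf at -0.39 (SE 0.20). In ZEB1 every list median lay between -0.02 and 0.08.

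**Figure D5:**
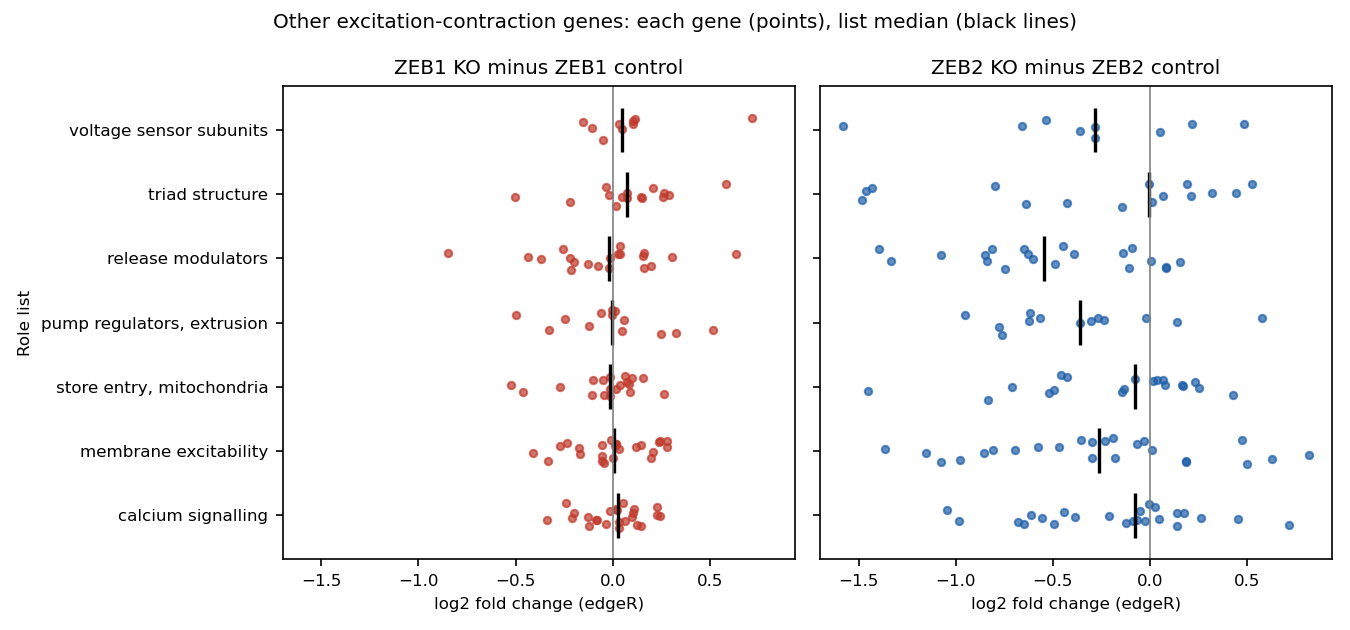
Log2 fold change (edgeR) of each tested gene of the 7 role lists in ZEB1 knockout against its control (left) and ZEB2 knockout against its control (right). Points are genes and black lines are list medians. In ZEB2 the release modulators have the lowest median, -0.55, and in ZEB1 all medians lie near 0.

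For 6 of the 10 genes another gene overlaps their exons, in each case on the opposite strand, and the sources used here do not say whether the counting used the strand. Overlap partners of Cacna1s (Gm37759, 1309 shared exon bases), Ryr1 (Gm26604 with 864 and Gm44408 with 50) and Atp2a2 (Gm43361, 83) had at most 4, 2, 0 and 6 counts in a library. Rabep2 shares 763 exon bases with Atp2a1 and had at most 200 counts in a library, Fam131b shares 445 with Clcn1 and had at most 31, and Gm17224 shares 156 with Casq1 and had at most 39. Against 536992 or more counts of Atp2a1, 698 or more of Clcn1 and 10274 or more of Casq1 these are small. The kit was a stranded one, per the labels.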

How the data were processed

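RNA was measured in gastrocnemius of fasted mice in 11 libraries of total RNA made, per the labels' protocols, with a stranded mRNA kit. In the deposited table, values are the authors' estimated counts per gene as whole numbers, with no normalization, and a gene's count includes exons outside the floxed part. The submitters' processing notes name STAR, RSEM, DESeq2 and build GRCm38. The sources used here give no settings for them. RSEM shares reads among similar genes by estimation. Of 55385 identifiers, 54487 matched GENCODE M21 (GRCm38) with version and 55144 without it.

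From these counts, edgeR 4.0.16 in R 4.3.3 gave TMM-scaled CPM and a robust quasi-likelihood fit with 4 group means, over 15416 genes kept by filterByExpr (minimum count 10, minimum total 15), holding 99.96% of counts. The biological coefficient of variation was 0.24. Benjamini-Hochberg adjustment ran over all genes tested, with a threshold of 0.05. Correlations used log2 CPM, permutation p-values of single relations 100000 resamples, and exact tests enumerated all arrangements of libraries. The alternatives were DESeq2 1.42.0, limma-voom (limma 3.58.1), other scaling and filters, fewer samples, a replicate block and a Y-linked covariate. The fit was tested on simulated data. The genes and lists were chosen with earlier results of these data known. From each role list the 2 most abundant genes per kilobase were named, with Myh7, Myh2, Myh1, Myh4, Trim63, Zeb1 and Zeb2 and up to 3 nearest patterns per gene. For one role list the genes chosen in this way are not reported here.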

Additional observations from a re-analysis of the deposited data

How the results depend on the processing

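Casq2, Clcn1, Casq1, Atp2a2 and Atp2a1 kept their ZEB2 direction under every alternative run, with log2 fold changes over left-out libraries from -2.10 to -1.29, -1.55 to -1.01, -1.57 to -0.90, -0.73 to -0.51 and 0.31 to 0.51. None of the 10 genes was called in any comparison when a library was left out. DESeq2 called 3 of the 10 for ZEB2 and 1 for the mean of both effects, and the ZEB2 groups fitted alone called 3. Counts over all genes moved more. DESeq2 called 21 genes for ZEB1, 2587 for ZEB2, 17 for the difference of effects, 413 for the mean and 16 between controls, where edgeR called 0, 0, 0, 0 and 3. With no filter on low counts these became 6, 348, 2, 5 and 7. Other changed counts were 2077 for the ZEB2 groups fitted alone, 1 for ZEB1 by limma-voom and, between controls, 5 with RLE size factors, 4 with a stricter filter, 4 with the Y-linked covariate and 2 by limma-voom. Over left-out libraries the counts ran from 0 to 5 for ZEB1, 0 to 3 for the difference and 0 to 17 for the mean, each highest without ZEB1 KO 2, and 1 to 5 between controls, lowest without ZEB2 control 1 and highest without ZEB1 KO 1. The cause of these changes was not tested. The pump ratio of both lines ran from -0.97 to -0.39 and the calsequestrin ratio from -0.72 to -0.32.

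Replicate numbers, taken from the titles (another label numbers the ZEB1 controls 1 and 2), did not pair the samples: same-numbered libraries had correlations of their deviations from -0.416 to 0.465, 8 of 15 over 0.1, and 5 of 11 libraries correlated best with their own number. The replicate block left 1 gene called between controls, against 3, changed no other count, and gave Sln 0.20 for the difference of effects and Atp2a1 -0.056 and Pvalb 0.036 between controls.

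The direction changed in 51 of the values of single genes, none of which was called. For the difference of effects Sln became 0.13 by limma-voom and 0.17 with the Y-linked covariate, and Trdn 0.0056 with that covariate. Between controls Cacna1s became -0.0031 without mitochondrial genes, -0.021 with a stricter filter and -0.0044 with the groups fitted alone, Atp2a1 -0.014 with the stricter filter, and Pvalb 0.0032 with no filter and 0.022 with the covariate. Over left-out libraries the ZEB1 values ran from -0.21 to 0.18 for Cacna1s, -0.31 to 0.062 for Trdn, -0.069 to 0.30 for Atp2a1, -0.62 to 0.17 for Atp2a2, -0.56 to 0.18 for Sln and -0.57 to 0.48 for Clcn1. The ZEB2 values ran from -0.53 to 0.45 for Sln and -0.047 to 0.20 for Pvalb. The difference ran from -0.29 to 0.14 for Trdn, -0.76 to 0.03 for Atp2a2 and -0.40 to 0.58 for Sln, and the mean from -0.0185 to 0.079 for Ryr1, -0.39 to 0.16 for Sln and -0.20 to 0.011 for Pvalb. Between controls the values ran from -0.19 to 0.21 for Cacna1s, -0.17 to 0.20 for Atp2a1, -0.59 to 0.19 for Atp2a2, -0.066 to 0.11 for Pvalb and -0.40 to 0.65 for Clcn1. Depth limits Sln most, at 116 to 424 counts per library.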
